A study of Mus musculus with 12 samples.

Results

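The membrane carriers for glucose, fructose and urate followed here across 12 kidney RNA-seq libraries were Slc5a1 (the sodium-glucose cotransporter SGLT1), Slc5a2 (SGLT2), Slc2a2 (GLUT2), Slc2a1 (GLUT1), Slc2a5 (GLUT5) and Slc2a9 (GLUT9). They were chosen by name, as 6 of the 24532 genes in the deposited tables, and were found by Entrez identifier. All 6 had at least 1 TPM in each of the 12 libraries, so all 6 entered every test.

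The mice formed 4 groups of 3 libraries each. Kidneys of FXR KO mice (strain Nr1h4tm1Gonz/J) were taken after 6 h of GW4064 or after vehicle, and kidneys of WT mice (C57BL/6) after the same 2 treatments. Nr1h4 encodes FXR, the farnesoid X receptor, which binds bile acids and regulates transcription. GW4064 is a non-steroidal compound made to activate it. All groups followed an overnight fast per the study's design text, and the labels give no dose, age, sex or vehicle time. The whole kidney was extracted, with no sorting of cells. Nothing in the labels tells whether each library stands for its own mouse, so a p-value here reflects library-to-library spread, which may be technical. KO and WT mice also carry different strain names, so the effect of the targeted allele and that of any difference in strain stock cannot be told apart.

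The libraries held 2.86 to 4.27 mapped gigabases, derived from the deposited coverage and FPKM. Nr1h4 itself had 105, 131 and 134 TPM in FXR KO GW4064 libraries and 189, 206 and 242 TPM in WT GW4064 libraries. On vehicle it had 120, 116 and 113 TPM in FXR KO and 217, 267 and 249 TPM in WT libraries. Nr1h4 reads were thus lower in each KO library than in each WT library, and were well above 0 in KO kidneys (log2 difference on vehicle -1.06 ± 0.11, limma adjusted p = 1.9e-04). Summed markers of fat varied most between libraries of 1 group, at 1.5 to 37 TPM in WT GW4064 kidneys, and their part in the results below was not tested.

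The proximal tubule of the kidney takes back the glucose that the glomerulus filters. SGLT2, a carrier of low affinity and high capacity on the apical face of the early proximal tubule, moves most of it, and SGLT1, of high affinity, takes up the remainder in the late proximal tubule. Glucose then leaves through the basolateral face, through GLUT2 in the early segments and GLUT1 in later ones, while GLUT5 carries fructose and GLUT9 carries urate. Proximal tubule cells also make glucose during a fast, and GLUT2 is a route by which it reaches the blood.

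Levels per length differed widely between the 6 genes. TPM divides reads by gene length, so these levels can be compared between genes. Slc5a2 had the highest level, from 504 to 633 TPM over the 12 libraries with a median of 605 TPM. Slc2a2 followed at 191 to 326 TPM (median 228 TPM), and Slc5a1 at 48.7 to 109 TPM (median 67.1 TPM). Slc2a5 lay at 35.9 to 65.2 TPM, Slc2a1 at 31.8 to 41.6 TPM and Slc2a9 at 13.8 to 19.3 TPM. The order of the group means was the same in all 4 groups. Neighbours in that order did not overlap within a group, except Slc5a1 and Slc2a5 in FXR KO GW4064 libraries (means 50.9 and 49.5 TPM) and Slc2a5 and Slc2a1 in FXR KO vehicle libraries (means 38.8 and 34 TPM). Together the 6 genes summed to 954 ± 87.5 TPM in FXR KO GW4064, 990 ± 50.9 TPM in FXR KO vehicle, 1123 ± 16.3 TPM in WT GW4064 and 989 ± 35.6 TPM in WT vehicle kidneys (SD, n = 3 each). The deposited coverage of the 6 genes ranged from 15.3 for Slc2a9 to 1078 for Slc5a2 (taken as mean reads per base).

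**Figure D1:**
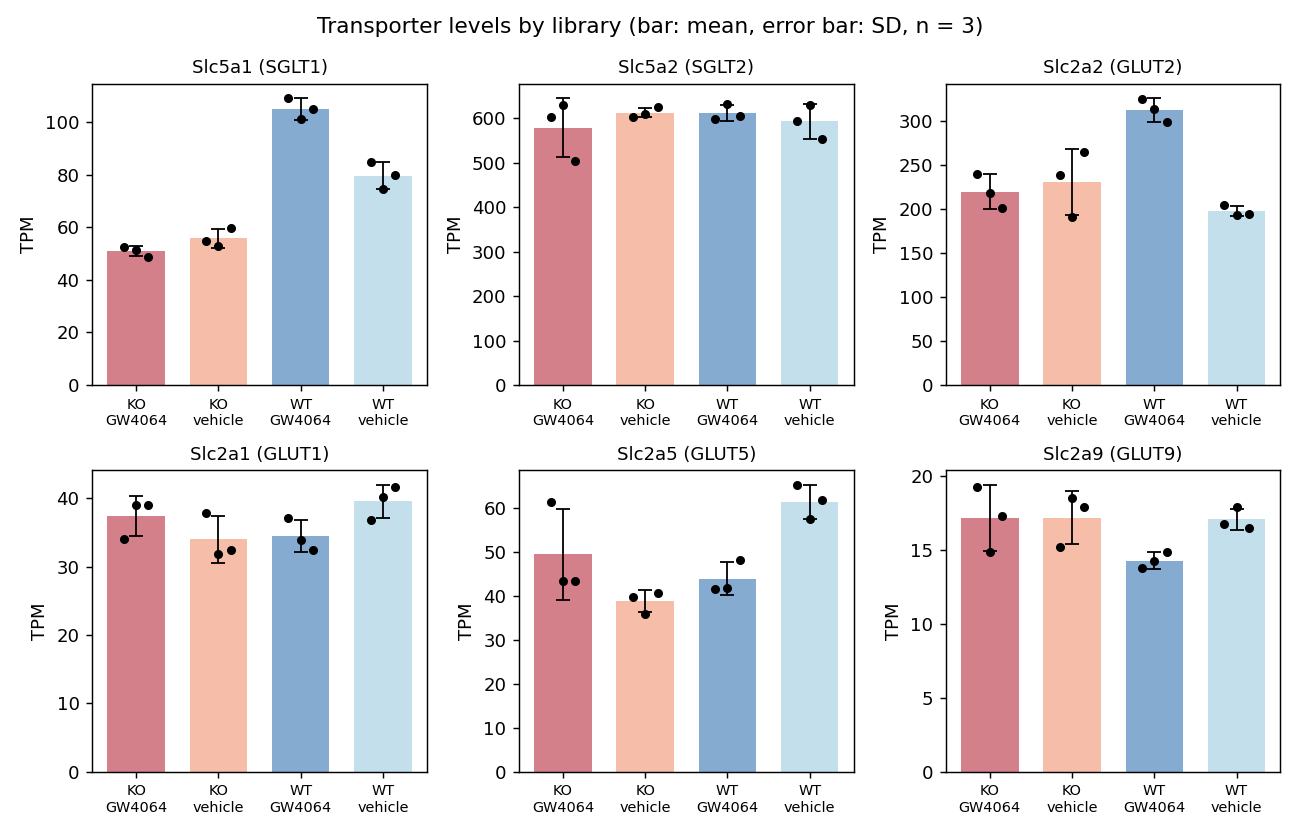
Levels of the 6 transporter genes in TPM (y axis, from 0) in the 4 groups (x axis), with 1 point per library, bars for means and error bars for SD (n = 3). Slc5a1 lies at 48.7 to 59.7 TPM in all KO libraries and at 74.5 to 109 TPM in all WT libraries, whereas the 4 groups of Slc5a2 overlap between 504 and 633 TPM.

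A gene was called when its adjusted p was under 0.05, from limma on log2(TPM + 0.5) with Benjamini-Hochberg adjustment over all 14488 genes tested, and log2 differences are given with their standard error. Between genotypes on vehicle, 2 of the 6 genes were lower in FXR KO than in WT kidneys (Slc5a1 and Slc2a5), where 12.9% of all genes tested were called. Of those, 462 were higher and 1410 lower in FXR KO, so calls on vehicle leaned to the lower side over all genes. Between genotypes under GW4064, 2 of the 6 were lower in FXR KO (Slc5a1 and Slc2a2), where 18.5% of all genes were called. With GW4064 against vehicle, 3 of the 6 were called in WT kidneys (Slc5a1 and Slc2a2 higher, Slc2a5 lower), where 4.80% of all genes were called. In FXR KO kidneys none of the 6 was called with GW4064 against vehicle, where 0.0138% of all genes were called, and 1 of the 6 had an unadjusted p under 0.05. The difference of the GW4064 effect between genotypes (the interaction) was called for 3 of the 6, where 3.19% of all genes were called. An unadjusted p under 0.05 was found for 4 of the 6 in the interaction and for 5 of the 6 with GW4064 in WT kidneys. These comparisons share libraries: the WT vehicle libraries stand in both the genotype comparison on vehicle and the GW4064 comparison in WT.

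**Figure D2:**
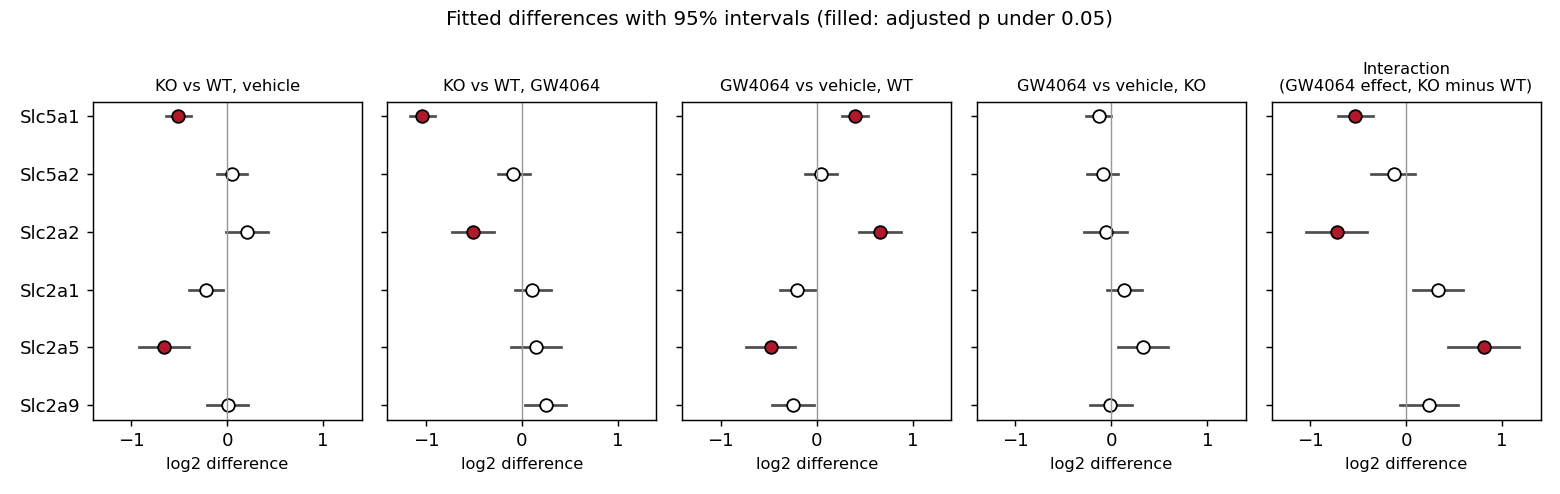
Fitted log2 differences of the 6 genes (x axis, log2(TPM + 0.5) scale) with 95% intervals for the 5 comparisons, 1 panel each, with filled points at an adjusted p under 0.05. Slc5a1 is filled in 4 panels, and no gene is filled in the panel of GW4064 against vehicle in FXR KO kidneys.

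Slc5a1 was lower in FXR KO than in WT kidneys on both treatments, and was higher with GW4064 than with vehicle in WT kidneys. SGLT1 is the high-affinity glucose carrier that also takes up galactose. The gene (Entrez 20537) lies at chr5:33104219-33162699 on the plus strand of mm10. The libraries of FXR KO mice given GW4064 had 52.6, 51.4 and 48.7 TPM, and those of WT mice given GW4064 had 109, 101 and 105 TPM. On vehicle, the FXR KO libraries had 54.8, 52.8 and 59.7 TPM and the WT libraries 84.7, 74.5 and 79.7 TPM. Every KO library lay below every WT library, and every WT GW4064 library lay above every WT vehicle library.

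Under GW4064 the level of Slc5a1 in FXR KO kidneys was 0.488 times that in WT kidneys (log2 difference -1.04 ± 0.06, limma Benjamini-Hochberg adjusted p = 1.0e-06). On vehicle it was 0.702 times that in WT kidneys (-0.51 ± 0.06, limma adjusted p = 4.8e-04). GW4064 against vehicle gave a 1.32-fold higher level in WT kidneys (0.40 ± 0.06, limma adjusted p = 0.00264). In FXR KO kidneys the same contrast was -0.13 ± 0.06 with a 95% interval of -0.26 to 0.00 and was not called (limma adjusted p = 0.466). The interaction was -0.53 ± 0.08 (limma adjusted p = 0.00772), so the GW4064 difference was lower in FXR KO than in WT on the log2 scale. All 4 calls held under each alternative setting and without each library in turn. In whole kidney, fewer cells of a type and less RNA per cell cannot be told apart.

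The 250 bases upstream of the Slc5a1 start are shown because this gene had the largest difference between genotypes among the 6. They are taken from RefSeq (GRCm38.p6, chr5:33103969-33104218, plus strand), and 5 of the 6 genes had such an entry. Capitals mark the only match among the motifs searched, an E-box (CACGTG) that begins at position -143 from the start.
Slc5a1: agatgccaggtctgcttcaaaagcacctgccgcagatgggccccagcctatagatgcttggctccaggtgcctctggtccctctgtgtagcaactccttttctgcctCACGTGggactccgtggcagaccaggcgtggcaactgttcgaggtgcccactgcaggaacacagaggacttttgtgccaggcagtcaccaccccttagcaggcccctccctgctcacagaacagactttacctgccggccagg
The motifs were searched on both strands as exact letters: the nuclear receptor hexamer AGGTCA, an inverted repeat of that hexamer spaced by 1 base (the classic FXR element), the E-box CACGTG and the GC box GGGCGG. Of 32851 RefSeq windows of the same length, 6.02% held the E-box, 14% the hexamer, 0.00609% the inverted repeat and 32.7% the GC box. None of the 5 windows held the inverted repeat in these letters. A match is a description of the letters in a window only.

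Slc5a2 did not pass the test in any comparison. SGLT2 is the carrier that the gliflozin drugs block. The gene (Entrez 246787, chr7:128265697-128272433, plus strand) shares 1055 bases with Rusf1 on the opposite strand. Rusf1 had 20.7 to 25 TPM over all libraries and no call, and the kit was stranded per the labels, but the sources used here do not say whether the counting used strand. In GW4064 libraries Slc5a2 had 604, 631 and 504 TPM in FXR KO and 598, 633 and 606 TPM in WT mice. In vehicle libraries it had 604, 609 and 625 TPM in FXR KO and 595, 630 and 554 TPM in WT mice. The 4 groups overlapped, and the lowest library was FXR KO GW4064 replicate 3.

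The 95% interval of the Slc5a2 log2 difference between FXR KO and WT was -0.25 to 0.08 under GW4064 and -0.11 to 0.21 on vehicle. For GW4064 against vehicle it was -0.25 to 0.07 in FXR KO and -0.12 to 0.21 in WT kidneys. These intervals leave out differences of the size seen for Slc5a1 between genotypes.

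The balance of the 2 apical glucose carriers differed between genotypes. Slc5a2 differed little between FXR KO and WT (-0.09 under GW4064 and 0.05 on vehicle). The ratio thus mainly restates the Slc5a1 difference and is not a separate result. Within a library, the level of Slc5a2 was 11.5, 12.3 and 10.3 times that of Slc5a1 in FXR KO GW4064 kidneys and 5.48, 6.28 and 5.78 times in WT GW4064 kidneys. On vehicle the ratio was 11, 11.5 and 10.5 in FXR KO kidneys and 7.03, 8.45 and 6.95 in WT kidneys. No KO library overlapped with a WT library. The log2 ratio was higher in FXR KO by 0.76 (0.95 under GW4064 and 0.56 on vehicle), with an exact two-sided permutation p of 0.005 over the 400 arrangements within treatments, the smallest p they allow, and an adjusted p of 0.02 over 4 ratio tests. With GW4064 against vehicle it differed by -0.15, by 0.04 in FXR KO and -0.35 in WT kidneys (exact two-sided permutation p = 0.115, adjusted p = 0.153). As a share of the summed level of both genes, Slc5a2 made up 91.9% ± 0.65 in FXR KO GW4064, 91.7% ± 0.37 in FXR KO vehicle, 85.4% ± 0.85 in WT GW4064 and 88.1% ± 1.12 in WT vehicle kidneys (SD, n = 3 each).

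**Figure D3:**
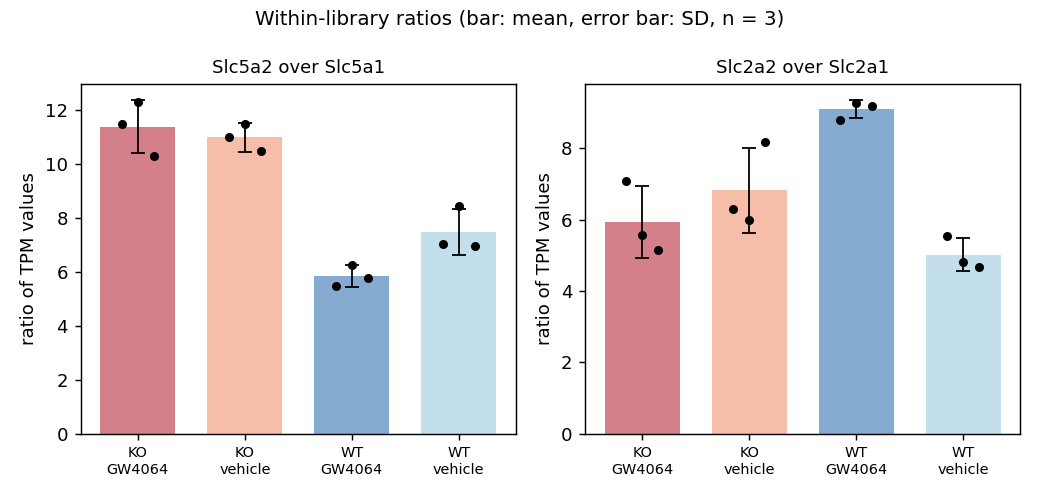
Ratios of TPM values within each library (y axis, from 0) for Slc5a2 over Slc5a1 and Slc2a2 over Slc2a1 in the 4 groups, with 1 point per library, bars for means and error bars for SD (n = 3). The first ratio is 10.3 to 12.3 in KO libraries and 5.48 to 8.45 in WT libraries, and the second is highest in WT GW4064 libraries, at 8.8 to 9.27.

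Slc2a2 was higher with GW4064 than with vehicle in WT kidneys, and was lower in FXR KO than in WT kidneys under GW4064. GLUT2 is a low-affinity carrier that moves glucose, and also fructose, across the basolateral membrane. The gene (Entrez 20526) lies at chr3:28697903-28728360 on the plus strand. Its level was 240, 218 and 201 TPM in FXR KO GW4064 libraries and 326, 314 and 299 TPM in WT GW4064 libraries. On vehicle it was 239, 191 and 265 TPM in FXR KO and 205, 194 and 195 TPM in WT libraries. The 3 WT GW4064 libraries stood above all 9 others, and the other 3 groups overlapped.

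GW4064 against vehicle gave a 1.58-fold higher Slc2a2 level in WT kidneys (log2 difference 0.66 ± 0.10, limma adjusted p = 0.00273). In FXR KO kidneys the difference was -0.06 ± 0.10 with a 95% interval of -0.28 to 0.16 (limma adjusted p = 0.87). Between genotypes under GW4064, Slc2a2 was at 0.701 times the WT level in FXR KO kidneys (-0.51 ± 0.10, limma adjusted p = 0.00444). On vehicle it was 0.21 ± 0.10 and not called (limma adjusted p = 0.177), but without FXR KO vehicle replicate 2 it was 0.35 and called (limma adjusted p = 0.0206). The interaction was -0.72 ± 0.14 (limma adjusted p = 0.02). That call was lost without WT vehicle replicate 3, WT GW4064 replicate 1, FXR KO vehicle replicate 1 or FXR KO GW4064 replicate 3 (limma adjusted p = 0.053, 0.06, 0.0586 and 0.0509), with log2 values of -0.66 to -0.71.

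The Slc2a2 promoter window is shown because the gene had the largest GW4064 difference in WT kidneys among the 6. It lies at chr3:28697653-28697902 on the plus strand of GRCm38.p6 (RefSeq). Capitals mark a nuclear receptor hexamer (AGGTCA) that begins at position -21 from the start, the only match among the motifs searched.
Slc2a2: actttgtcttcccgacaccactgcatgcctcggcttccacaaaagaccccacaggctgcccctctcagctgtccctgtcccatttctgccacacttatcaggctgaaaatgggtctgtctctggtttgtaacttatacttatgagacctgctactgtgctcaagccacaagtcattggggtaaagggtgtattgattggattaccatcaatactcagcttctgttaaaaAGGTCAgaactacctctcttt
At 47.2% G and C it had the lowest share of the 5 windows, against a median of 52.4% over all windows.

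Slc2a1 had no called difference. GLUT1 is the widely expressed carrier for basal glucose uptake, and its gene (Entrez 20525) lies at chr4:119108745-119137329 on the plus strand. It had 34, 39 and 39 TPM in FXR KO GW4064 libraries and 37.1, 33.9 and 32.5 TPM in WT GW4064 libraries. On vehicle it had 37.9, 31.8 and 32.4 TPM in FXR KO libraries and 36.9, 40.2 and 41.6 TPM in WT libraries. All 4 groups overlapped with at least 1 other. The largest of its differences between groups was -0.22 ± 0.08 for FXR KO against WT on vehicle (limma adjusted p = 0.104). Without FXR KO vehicle replicate 1 it was -0.30 and called (limma adjusted p = 0.0496). The interaction of Slc2a1 was 0.33 ± 0.12, with an unadjusted limma p of 0.0164 that did not pass the adjustment (limma adjusted p = 0.159).

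The ratio of the 2 basolateral glucose carriers, Slc2a2 over Slc2a1, was 7.07, 5.58 and 5.15 in FXR KO GW4064 and 6.29, 5.99 and 8.18 in FXR KO vehicle libraries. It was 8.8, 9.27 and 9.19 in WT GW4064 and 5.54, 4.82 and 4.68 in WT vehicle libraries. The WT GW4064 libraries stood above all others. Over both genotypes the log2 ratio with GW4064 against vehicle differed by 0.33 (exact two-sided permutation p = 0.115, adjusted p = 0.153), with -0.20 in FXR KO and 0.86 in WT kidneys. Between FXR KO and WT it differed by -0.10 (exact two-sided permutation p = 0.655), with -0.63 under GW4064 and 0.43 on vehicle. The pooled values thus combine differences of opposite sign.

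Slc2a5 was lower in FXR KO than in WT kidneys on vehicle, and was lower with GW4064 than with vehicle in WT kidneys. GLUT5 is a fructose carrier of the apical membrane. The gene (Entrez 56485) lies at chr4:150119344-150144168 on the plus strand. It had 61.5, 43.5 and 43.4 TPM in FXR KO GW4064 libraries and 41.6, 41.9 and 48.3 TPM in WT GW4064 libraries. On vehicle it had 39.7, 35.9 and 40.7 TPM in FXR KO libraries and 65.2, 57.5 and 61.8 TPM in WT libraries. WT vehicle libraries were the high group, and FXR KO GW4064 replicate 1 was the only library of another group within their range.

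On vehicle, Slc2a5 in FXR KO kidneys was at 0.633 times the WT level (log2 difference -0.66 ± 0.12, limma adjusted p = 0.00607), and that call held in every alternative. Under GW4064 the difference between FXR KO and WT was 0.15 ± 0.12 (limma adjusted p = 0.425), and -0.01 without FXR KO GW4064 replicate 1. GW4064 against vehicle gave -0.48 ± 0.12 in WT kidneys, 0.716 times the vehicle level (limma adjusted p = 0.0425). In FXR KO kidneys it gave 0.33 ± 0.12, with an unadjusted p of 0.0179 that did not pass the adjustment (limma adjusted p = 0.348), and 0.16 without replicate 1 of FXR KO GW4064. The interaction was 0.81 ± 0.17 (limma adjusted p = 0.0264). The WT call for GW4064 was close to the threshold: it was lost without WT vehicle replicate 1, 2 or 3 (limma adjusted p = 0.131, 0.0644 and 0.121), WT GW4064 replicate 1 or 2 (0.149 and 0.137) or FXR KO vehicle replicate 1 or 3 (0.059 and 0.0548), with no filter on low values (0.0654), on FPKM (0.0532) and without the variance trend (0.0762). The interaction was lost without WT vehicle replicate 1 or 3 (limma adjusted p = 0.0662 and 0.0639), WT GW4064 replicate 1 or 2 (0.0742 and 0.0641) or FXR KO vehicle replicate 1 or 2 (0.0603 and 0.0503), and without the variance trend (0.0513).

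The Slc2a5 promoter window is shown as that of the 1 gene of the 6 that was called lower with GW4064 in WT kidneys. It lies at chr4:150119094-150119343 on the plus strand of GRCm38.p6 (RefSeq) and is 66.4% G and C. Capitals mark 3 GC boxes, read here on the opposite strand as CCGCCC, that begin at positions -172, -160 and -154 from the start.
Slc2a5: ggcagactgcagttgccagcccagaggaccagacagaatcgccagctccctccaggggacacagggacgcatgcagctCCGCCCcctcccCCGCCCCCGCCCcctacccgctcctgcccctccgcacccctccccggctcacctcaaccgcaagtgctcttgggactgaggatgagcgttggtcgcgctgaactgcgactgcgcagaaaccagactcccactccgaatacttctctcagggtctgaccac
The window of Slc2a1 had the same share of G and C and held 2 GC boxes, at positions -45 and -20.

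Slc2a9 had no called difference and the lowest level of the 6. GLUT9 carries urate out of tubule cells, and in mice its absence raises urate in blood and urine. The gene (Entrez 117591) lies at chr5:38349273-38502152 on the minus strand. It had 19.3, 14.9 and 17.3 TPM in FXR KO GW4064 libraries and 13.8, 14.3 and 14.9 TPM in WT GW4064 libraries. On vehicle it had 15.2, 18.5 and 17.9 TPM in FXR KO and 16.8, 17.9 and 16.5 TPM in WT libraries. WT GW4064 was the low group and did not overlap with the other 3, although its highest library and the lowest FXR KO GW4064 library both round to 14.9 TPM. Under GW4064 the difference between FXR KO and WT was 0.25 ± 0.10 (limma adjusted p = 0.103), and without FXR KO GW4064 replicate 2 it was 0.35 and called (limma adjusted p = 0.0299). GW4064 against vehicle in WT kidneys gave -0.25 ± 0.10 (limma adjusted p = 0.188). Its promoter window, which lies inside the deposited span of the gene, held the nuclear receptor hexamer 2 times on the opposite strand, as TGACCT at positions -81 and -56.

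Other genes whose levels followed each transporter were found by Pearson's r of log2(TPM + 0.5) over the 12 libraries, among 10980 genes of at least 5 TPM on average. The libraries share groups and depth, so r is a description. For Slc5a1 the closest were Fam169b (r = 0.989), Gdi2 (r = 0.989), a regulator of Rab proteins, and Neu1 (r = 0.986), a lysosomal sialidase. Neu1 averaged 111 TPM in FXR KO GW4064, 129 TPM in FXR KO vehicle, 267 TPM in WT GW4064 and 195 TPM in WT vehicle kidneys, which is the order of Slc5a1. When group means were taken off, r with Slc5a1 was 0.06 for Neu1, 0.60 for Fam169b and 0.78 for Gdi2. Slc2a2 was closest to Tmem268 (r = 0.961), Nt5c3 (r = 0.945) and Gmfb (r = 0.940), and Slc2a5 to Ephx1 (r = 0.958), an epoxide hydrolase, Ino80 (r = 0.954) and Sdc1 (r = 0.948). For the 3 genes without a call the closest were Nme1 for Slc5a2 (r = 0.904), Golga5 for Slc2a1 (r = 0.938) and Agt, which encodes angiotensinogen, for Slc2a9 (r = 0.911). With group means taken off, r was 0.94 for Nme1, 0.90 for Golga5 and 0.85 for Agt, so libraries within groups also varied alike. FXR KO GW4064 replicate 3 was the lowest library of both Slc5a2 (504 TPM) and Nme1 (120 TPM).

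Markers of the late proximal tubule (S3), where SGLT1 is found, did not all move as Slc5a1 did. Between genotypes, 12.9% of all genes tested were called on vehicle and 18.5% under GW4064. Of 7 S3 markers tested, 4 were lower and 1 higher in FXR KO than in WT kidneys on vehicle, with a median log2 difference of -0.44 against -0.09 over all genes. Lower were the monocarboxylate carrier Slc5a8 (-1.12 ± 0.05, limma adjusted p = 3.6e-07), the amino acid carrier Slc7a13 (-0.56 ± 0.11, 0.00709), the lipid flippase Atp11a (-0.53 ± 0.08, 0.00259) and Acy3 (-0.41 ± 0.11, 0.0343), a call lost in 9 of 24 alternatives. Higher was Cyp7b1, an oxysterol hydroxylase (1.22 ± 0.17, limma adjusted p = 0.00143). Under GW4064, 5 of the 7 were lower and 2 higher in FXR KO, with a median of -0.49 against -0.03 over all genes, and the further calls were Slc22a7 (-0.49 ± 0.13, limma adjusted p = 0.0249), lost in 4 of 24 alternatives, and Slc27a2 (0.33 ± 0.05, limma adjusted p = 0.0011), which was 0.05 and not called under quantile normalization (adjusted p = 0.717). With GW4064 against vehicle in WT kidneys, 4.80% of all genes tested were called. Slc5a1 was higher there, none of the 7 markers was called higher, and 4 of the 7 had an unadjusted p under 0.05. The 1 called lower was Slc27a2 (-0.21, limma adjusted p = 0.0454), a call lost in 14 of 24 alternatives. Without a call, Slc22a7 was at 0.30 and Slc5a8 at -0.11 (limma adjusted p = 0.239 and 0.23). Slc7a13, also without a call, had 964 to 1004 TPM in WT GW4064 and 696 to 891 TPM in WT vehicle libraries.

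The summed level of the 7 S3 markers was 7012 to 7585 TPM in FXR KO GW4064, 7190 to 7634 TPM in FXR KO vehicle, 7189 to 7645 TPM in WT GW4064 and 7429 to 8067 TPM in WT vehicle kidneys. These ranges overlap, and no marker of the list was at 0. Slc27a2 alone made up 51.1% to 70% of the sum, and it was left out once its values had been seen. The other 6 markers summed to 2458 to 2525 TPM in FXR KO GW4064, 2155 to 2685 TPM in FXR KO vehicle, 3364 to 3741 TPM in WT GW4064 and 3078 to 3372 TPM in WT vehicle kidneys. Without Slc27a2, every KO library thus lay below every WT library, as for Slc5a1. Markers of the early proximal tubule (S1-S2), where SGLT2 and GLUT2 are found, summed to 5831 to 6645 TPM in FXR KO GW4064 and 7105 to 7348 TPM in WT GW4064 kidneys. On vehicle they summed to 6658 to 7396 TPM in FXR KO and 6730 to 7261 TPM in WT kidneys. Of these 9 markers, 5 were lower and 2 higher in FXR KO than in WT under GW4064, where 18.5% of all genes were called. In the same contrast Slc2a2 was called lower (-0.51) and Slc5a2 had no call (-0.09, limma adjusted p = 0.476).

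Markers of cells outside the proximal tubule also differed between genotypes, where 12.9% of all genes tested were called on vehicle and 18.5% under GW4064. On vehicle all 4 podocyte markers were lower in FXR KO, with a median log2 difference of -0.39, and summed to 131 to 146 TPM in FXR KO and 176 to 184 TPM in WT kidneys. Under GW4064, 2 of the 4 were lower, at 139 to 151 TPM in FXR KO and 158 to 164 TPM in WT. Of 5 endothelial markers 3 were lower in FXR KO on vehicle, with sums of 273 to 306 TPM in FXR KO and 322 to 348 TPM in WT, and 1 was lower and 1 higher under GW4064. Of 5 markers of collecting duct principal cells, 2 were lower on vehicle (the water channels Aqp2 and Aqp3), with sums of 421 to 436 TPM in FXR KO and 493 to 561 TPM in WT, and Aqp3 was lower under GW4064. Of 5 macrophage markers, the complement genes C1qa and C1qb were higher in FXR KO on vehicle, with sums of 99.6 to 103 TPM in FXR KO and 82.4 to 88 TPM in WT, and Csf1r was lower under GW4064. Of 5 intercalated cell markers 1 was higher and 1 lower on vehicle. No marker of the thick ascending limb, distal convoluted tubule, red blood cells, fat or urothelium was called by limma between genotypes, where 2, 1, 1, 0 and 1 had an unadjusted p under 0.05 on vehicle and 1, 1, 1, 0 and 0 under GW4064. Some markers also differed with GW4064 against vehicle in WT kidneys, where 4.80% of all genes were called. The S1-S2 marker Cubn and the macrophage marker Csf1r were called higher, and the S1-S2 marker Slc7a8 and Aqp2 lower. Podocyte markers summed to 158 to 164 TPM in WT GW4064 and 176 to 184 TPM in WT vehicle kidneys. Principal cell markers summed to 405 to 458 TPM and 493 to 561 TPM. The part of cell makeup in the differences of the transporter genes was not tested.

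**Figure D4:**
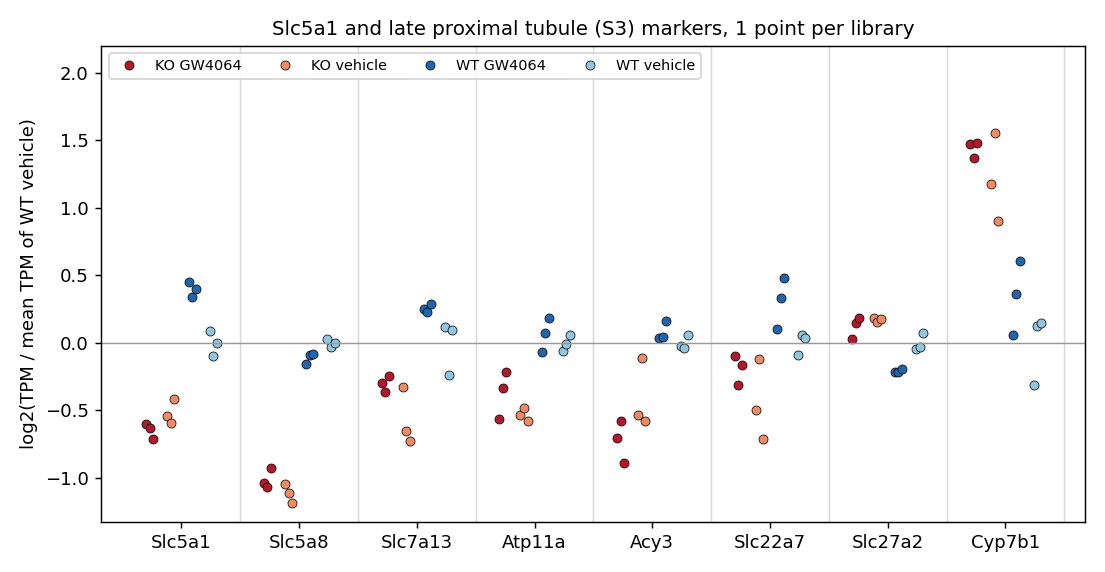
Level of Slc5a1 and of 7 markers of the late proximal tubule (S3) in each library, as log2 of TPM over the mean of the WT vehicle libraries (y axis), with 1 point per library coloured by group. Slc5a8 lies in KO libraries about as far below WT as Slc5a1 does under GW4064, Cyp7b1 lies above WT in KO, and no marker follows Slc5a1 in being higher in WT GW4064 libraries with a call.

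Among the other carriers of both families, Slc5a8, which takes up lactate and other monocarboxylates with sodium, had the largest difference. It had 172, 168 and 186 TPM in FXR KO GW4064 libraries and 316, 331 and 334 TPM in WT GW4064 libraries (log2 difference -0.90 ± 0.05, limma adjusted p = 5.4e-07). Of 7 other SLC5 genes tested, 2 were lower in FXR KO than in WT on vehicle, and 4 were lower and 1 higher under GW4064. The shares called over all genes were 12.9% on vehicle and 18.5% under GW4064. The second on vehicle was Slc5a6, a carrier of biotin and pantothenate (-0.49 ± 0.11, limma adjusted p = 0.017). Under GW4064 the others lower were the myo-inositol carriers Slc5a3 (-0.36 ± 0.06, limma adjusted p = 0.00208) and Slc5a11 (-0.33 ± 0.08, 0.0109), and Slc5a6 (-0.44 ± 0.11, 0.0172), whose calls were lost in 2 of 24 alternatives under GW4064 and in 3 of 24 on vehicle. Slc5a10, a mannose and fructose carrier, was higher (0.45 ± 0.13, limma adjusted p = 0.0291), but not called in 6 of 24 alternatives, with 0.28 and an adjusted p of 0.0566 without FXR KO GW4064 replicate 1.

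Of 5 other GLUT genes tested, 2 were lower in FXR KO than in WT on each treatment and none was higher. The shares called over all genes were 12.9% on vehicle and 18.5% under GW4064. Slc2a12 (GLUT12) under GW4064 had 6.68, 7.38 and 8 TPM in FXR KO and 13.9, 11.6 and 11.2 TPM in WT libraries (log2 difference -0.70 ± 0.13, limma adjusted p = 0.00291). Slc2a4, the insulin-regulated GLUT4, was lower by less on vehicle (-0.28 ± 0.07, limma adjusted p = 0.0215) and under GW4064 (-0.22 ± 0.07, limma adjusted p = 0.0392). Slc2a8 (GLUT8) was lower on vehicle (-0.32 ± 0.09, limma adjusted p = 0.0365). The calls of Slc2a4 were lost in 6 of 24 alternatives on vehicle and in 9 of 24 under GW4064, and that of Slc2a8 in 8 of 24 (limma adjusted p up to 0.126). On vehicle, scaling by median ratios removed the calls of Slc2a4 and Slc2a8 (limma adjusted p = 0.122 and 0.113). Quantile normalization removed them too (limma adjusted p = 0.113 and 0.126). With GW4064 against vehicle none of the 12 other carriers was called by limma in either genotype, and 5 of 12 in FXR KO and 2 of 12 in WT had an unadjusted p under 0.05. Of all genes tested, 0.0138% were called in FXR KO and 4.80% in WT kidneys, so few calls among 12 genes would be looked for.

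Most of the 11 regulators and partners of glucose carriers tested and reported here did not pass the test, with a median log2 difference of -0.02 between FXR KO and WT under GW4064 and -0.06 on vehicle, against -0.03 and -0.09 over all genes. The shares called over all genes were 18.5% under GW4064 and 12.9% on vehicle. On vehicle, Sgk1, a kinase known to raise the activity of several carriers, had 441, 431 and 515 TPM in FXR KO and 173, 170 and 116 TPM in WT libraries (1.61 ± 0.19, limma adjusted p = 4.4e-04). Its GW4064 effect differed between genotypes (interaction -1.30 ± 0.26, limma adjusted p = 0.0229), a call lost without WT GW4064 replicate 1 or FXR KO vehicle replicate 1 or 3 (0.0662, 0.0541 and 0.0515). Pdzk1, an apical scaffold protein, was lower in FXR KO under GW4064 (-0.24 ± 0.07, limma adjusted p = 0.0274), a call lost in 8 of 24 alternatives. Pdzk1ip1, the accessory protein of SGLT2, had no call, as Slc5a2 had none.

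Of 11 genes of urate transport tested beside Slc2a9, 2 were higher in FXR KO than in WT on vehicle and none lower, where 12.9% of all genes were called. These were Slc17a1 (0.28 ± 0.04, limma adjusted p = 0.00193) and the urate exporter Abcg2 (0.19 ± 0.04, limma adjusted p = 0.0104). Under GW4064, 5 were higher and 2 lower in FXR KO, where 18.5% of all genes were called. Slc22a12, which encodes URAT1, the apical urate exchanger, had 1506, 1396 and 1624 TPM in FXR KO and 1003, 1215 and 1115 TPM in WT GW4064 libraries (0.44 ± 0.08, limma adjusted p = 0.00215). Abcc4, an efflux pump, had 81, 56.2 and 70.1 TPM in FXR KO and 37.8, 37.2 and 31 TPM in WT GW4064 libraries (0.95 ± 0.12, limma adjusted p = 2.1e-04). It was also the 1 gene of the list called for GW4064 against vehicle in WT (-0.68 ± 0.12, limma adjusted p = 0.00671) and for the interaction (1.12 ± 0.17, limma adjusted p = 0.00492). Lower under GW4064 were Slc22a7 (-0.49 ± 0.13) and Slc22a13 (-0.24 ± 0.07, limma adjusted p = 0.0375), calls lost in 4 and 10 of 24 alternatives.

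Of 7 genes that handle fructose, its products and polyols, 1 was lower in FXR KO than in WT on each treatment and none was higher. The shares called over all genes were 12.9% on vehicle and 18.5% under GW4064. With GW4064 against vehicle in WT kidneys 1 was higher and 1 lower, and the interaction was called for 2. Over all genes, 4.80% were called in that contrast and 3.19% for the interaction. Khk, the kinase of the first step of fructose breakdown, had 344, 328 and 371 TPM in FXR KO and 441, 474 and 436 TPM in WT libraries on vehicle (-0.38 ± 0.05, limma adjusted p = 8.9e-04). Like Slc2a5 it was lower with GW4064 in WT kidneys (-0.22 ± 0.05, limma adjusted p = 0.0228), a call lost in 6 of 24 alternatives. The interaction of Khk was 0.46 ± 0.07 (limma adjusted p = 0.00492). Both genes share the WT vehicle libraries in these comparisons.

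Glyctk, the kinase of glycerate, differed most among the 7 fructose genes tested and reported here. It had 69.8, 84.8 and 72.3 TPM in FXR KO GW4064 libraries and 242, 204 and 195 TPM in WT GW4064 libraries (-1.49 ± 0.11, limma adjusted p = 4.3e-06). On vehicle it had 116, 87.4 and 106 TPM in FXR KO and 105, 104 and 100 TPM in WT libraries. The WT GW4064 libraries lay above all others, as for Slc2a2 (GW4064 against vehicle in WT 1.04 ± 0.11, limma adjusted p = 2.3e-04, interaction -1.48 ± 0.15, limma adjusted p = 5.4e-04). The FXR KO GW4064 libraries lay below all others, with no call against FXR KO vehicle (-0.44 ± 0.11, limma adjusted p = 0.215).

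Of 9 genes that phosphorylate or release glucose, 2 were called lower with GW4064 against vehicle in WT kidneys and none was higher. Over all genes, 4.80% were called in that contrast, and 12.9% and 18.5% between genotypes on vehicle and under GW4064. Pck1, the rate-limiting enzyme of glucose synthesis, had 2906, 4428 and 3511 TPM in WT GW4064 and 7146, 8548 and 7411 TPM in WT vehicle libraries (-1.11 ± 0.19, limma adjusted p = 0.00665). Hk1, a hexokinase, had 64.6, 66.9 and 62.4 TPM in WT GW4064 and 81.3, 83.2 and 81.3 TPM in WT vehicle libraries (-0.34 ± 0.06, limma adjusted p = 0.00657). Slc2a2, the exit route of glucose, was higher in the same contrast. Between FXR KO and WT under GW4064, 3 were higher and 3 lower, led by Pck1 (1.04 ± 0.19, limma adjusted p = 0.00319) and G6pc (0.72 ± 0.21, limma adjusted p = 0.0352) higher, and Fbp2 (-0.34 ± 0.09, limma adjusted p = 0.022) and G6pc3 (-0.26 ± 0.08, limma adjusted p = 0.0335) lower. On vehicle, Pcx (0.27 ± 0.07, limma adjusted p = 0.0254) and G6pc (0.76 ± 0.21, limma adjusted p = 0.0381) were higher in FXR KO. The calls of G6pc were lost in 6 of 24 alternatives under GW4064 and in 11 of 24 on vehicle, those of Fbp2 and G6pc3 in 2 and 5 of 24, and that of Pcx in 4 of 24. The interactions of Pck1 (1.30 ± 0.27, limma adjusted p = 0.0264) and Hk1 (0.35 ± 0.08, limma adjusted p = 0.0463) were lost in 9 and 15 of 23.

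**Figure D5:**
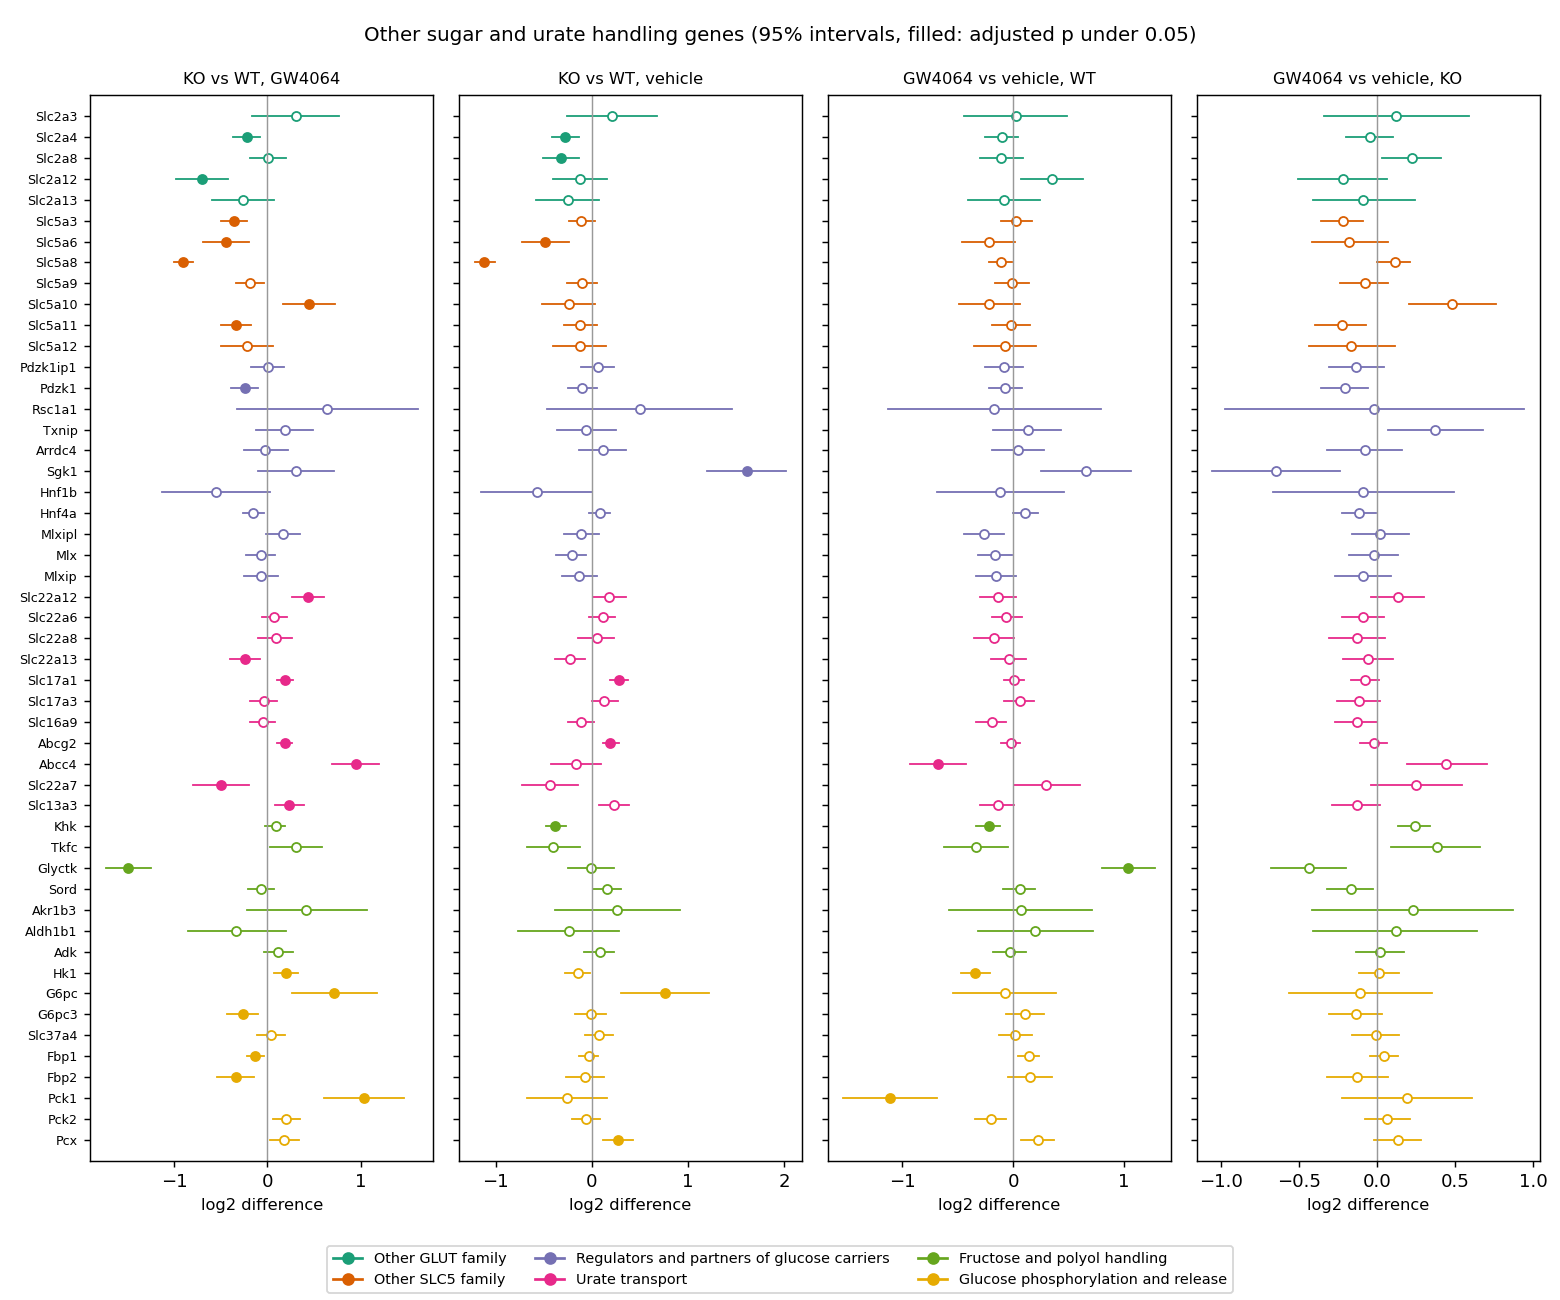
Fitted log2 differences (x axis, log2(TPM + 0.5) scale) with 95% intervals for the other GLUT and SLC5 carriers, regulators, urate carriers, fructose genes and genes of glucose phosphorylation and release, coloured by list, with filled points at an adjusted p under 0.05. In the panel of GW4064 against vehicle in WT kidneys 5 genes are filled (Abcc4, Khk, Glyctk, Hk1 and Pck1), and in that of FXR KO kidneys none of the 50 genes is, with 14 at an unadjusted p under 0.05. Of all genes tested, 4.80% were called in the WT contrast and 0.0138% in the FXR KO contrast.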

How the data were processed

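Whole-kidney total RNA was sequenced in 12 libraries with a stranded kit, per the labels' protocols. The submitters' processing notes name mm10 and the tools HISAT2, StringTie and Cufflinks. Tool versions and the annotation were not given in the sources used here. TPM values, as deposited, were scaled by the authors to a total of 1000000 per library after division by gene length. The deposited FPKM values, made by the authors, are proportional to TPM within a library and served as 1 of the alternatives. Coverage, a signal per gene that the authors deposited, served with FPKM to derive depth. No counts were used here, so no counting interval is given.

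Entries of 1 identifier were summed (113 to 142 identifiers per library), and 24462 of 24532 identifiers matched a symbol in the RefSeq table. TPM was transformed as log2(TPM + 0.5), which understates changes of low genes. Genes with 1 TPM or more in at least 3 libraries (14488) were fitted with limma 3.58.1 in R 4.3.3, with 1 mean per group over all 12 libraries and a variance trend, and p-values were adjusted by Benjamini-Hochberg within each comparison. Exact permutation tests of 2 ratios were made in Python 3.11.15 with numpy 2.4.6. The script was tested on simulated data.

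The 6 genes, the gene lists and the markers were chosen with earlier results of these data known, and 2 listed genes are not reported here. All 6 are named throughout. Of each of the 6 gene lists, every called gene was named where a comparison had 5 or fewer, otherwise the 2 of lowest p per direction. Cell type markers are given as counts and sums, with called genes named for S3 and some other lists. For likeness, the 3 genes of highest r were taken. Alternatives were 2 other pseudocounts, 2 other filters, 2 scalings, FPKM, no variance trend, array weights, a replicate block, the highest entry per identifier, only the 2 groups compared and leaving out each library.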

Additional observations from a re-analysis of the deposited data

Results flagged for a closer look

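In 3 of the 6 transporter genes the GW4064 difference itself differed between genotypes, by the interaction term of limma over all genes with Benjamini-Hochberg adjustment. Of all genes tested, 3.19% were called for this term. Slc5a1 had an interaction of -0.53 ± 0.08 on the log2 scale (limma adjusted p = 0.00772), with -0.13 in FXR KO and 0.40 in WT kidneys. Slc2a2 had -0.72 ± 0.14 (limma adjusted p = 0.02), with -0.06 in FXR KO and 0.66 in WT kidneys, a call lost in 4 of 23 alternatives. Slc2a5 had 0.81 ± 0.17 (limma adjusted p = 0.0264), with 0.33 in FXR KO and -0.48 in WT kidneys, a call lost in 7 of 23. The direction of the WT difference was upward for Slc5a1 and Slc2a2 and downward for Slc2a5. The other glucose carriers, Slc5a2 and Slc2a1, had WT differences of 0.05 and -0.20 without a call.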

How the results depend on the processing

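Of 30 results on single transporter genes, called or not, 24 kept their side of the threshold in every alternative run, among them all 4 calls of Slc5a1. Among the transporter calls, that of Slc2a5 for GW4064 in WT was lost in 10 of 24 alternatives. The interaction calls of Slc2a2 and Slc2a5 were lost in 4 and 7 of 23. Of 53 results on other listed genes, all of them called, 29 kept their side, so this count is not like the one of 30 results that include uncalled ones. The number of transporter genes called for the interaction ranged from 1 to 3 with 1 library left out, and was 1 without WT vehicle replicate 3, WT GW4064 replicate 1 or FXR KO vehicle replicate 1. Fewer libraries enter those fits. For the other comparisons it was 2 to 3 between genotypes on either treatment, 2 to 3 for GW4064 in WT and 0 for GW4064 in FXR KO.

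Counts over all genes moved with the library left out. They were 926 to 1903 against 1872 for FXR KO against WT on vehicle, 1726 to 2760 against 2677 under GW4064, 334 to 768 against 696 for GW4064 in WT, 0 to 51 against 2 for GW4064 in FXR KO and 216 to 535 against 462 for the interaction. Libraries of the same replicate number were not more alike: over 18 same-numbered pairs, deviations from group means correlated at -0.0748 to 0.0829. Over 36 pairs of different number they correlated at -0.105 to 0.126. The labels do not say what the numbers stand for, so whether libraries were paired is not known. With a replicate block the ratio of Slc5a2 to Slc5a1 differed by 0.76 between FXR KO and WT, with an adjusted p of 0.125 in the exact paired permutation. That permutation has fewer arrangements than the one within treatments, so its smallest possible p is larger. The block left each transporter call of limma on its side of the threshold. Scaling by median ratios or quantiles took the median log2 difference of all genes to near 0, from -0.09 on vehicle between genotypes. Depth could not be turned into a counting error, since no read counts were used.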
